A study of Mus musculus with 10 samples.

Results

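The 43 genes described here fold, process and export secreted and membrane proteins in the endoplasmic reticulum, or destroy the copies that fail to fold. They were chosen by gene symbol from textbook roles, with earlier results of these data known. Each matched 1 row of the 54987 genes in the deposited table. By role they were 9 lumenal chaperones and cochaperones, 2 lectin chaperones, 10 disulfide and prolyl folding enzymes, 7 parts of the translocation channel, 5 parts of the signal peptidase and oligosaccharyltransferase, 7 degradation genes and 3 stress transcription factors. All 43 passed the filter on low values in every fit below.

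Popliteal lymph nodes, the nodes behind the knee that receive lymph from the paw, were taken on day 15 for RNA sequencing, and the submitters named the aim as the mechanisms of adjuvant arthritis and of acupuncture. The mice are given as male BALB/c animals of 6 to 8 weeks. Acu (n = 3, libraries 4, 6 and 28) received 0.1 ml of complete Freund's adjuvant under the skin of the right hind paw, and acupuncture at ST36 according to the series title, a point just under the knee. AIA (n = 4, libraries 5, 10, 31 and 38) received the same adjuvant, an oil with killed mycobacteria that induces arthritis, without acupuncture. Control (n = 3, libraries 15, 16 and 17) received an equal volume of saline. A sham acupuncture group is named in the protocol and was not analysed here. Whether each library is a separate mouse is not stated, so p-values here reflect only the spread among libraries.

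Proteins bound for secretion enter the endoplasmic reticulum through the Sec61 channel, lose their signal peptide, gain glycans and disulfide bonds, and fold with the help of chaperones such as BiP, the product of Hspa5. When unfolded protein accumulates, the sensors ATF6, IRE1 and PERK raise the transcription of these genes, a program called the unfolded protein response. In lymph nodes, antibody-secreting plasma cells are known for a large endoplasmic reticulum and high levels of this machinery.

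The endoplasmic reticulum stress element, or ERSE, is the site through which ATF6 and XBP1 are known to act with the factor NF-Y. The genes were chosen by textbook role, and Hspa5 is a textbook case of the ERSE. Its share among them is therefore not independent of that choice and is given as a description. RefSeq promoters (GRCm38.p6, 250 bases before to 50 after a gene's start) were matched by symbol for 34 of the 43 genes, 41 promoters in all. The ERSE, searched on both strands as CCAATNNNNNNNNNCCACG, stood in 9 of the 34 genes (26.5%). Over all 27025 symbols with a promoter, 37 held it (0.137%), and it stood in 0.119% of the 32851 promoters. The holders were 4 lumenal chaperone genes (Hspa5, Hsp90b1, Dnajc3 and Creld2), the lectin chaperones Calr and Canx, the disulfide isomerase Pdia6, and the degradation genes Derl3 and Syvn1. Hsp90b1 held 2 copies. A match is a description of the letters and not of a factor bound there. The sites are printed with 10 bases on either side, the ERSE in capitals, since it was the motif most often found in these genes. Each line runs 5′ to 3′ on the strand of the gene, so that a site in the other orientation reads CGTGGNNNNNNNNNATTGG.
Hspa5: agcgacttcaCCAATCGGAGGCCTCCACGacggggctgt
Hsp90b1, distal: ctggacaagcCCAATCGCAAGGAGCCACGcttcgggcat
Hsp90b1, proximal: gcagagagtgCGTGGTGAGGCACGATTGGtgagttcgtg
Dnajc3: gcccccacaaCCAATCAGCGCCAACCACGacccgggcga
Creld2: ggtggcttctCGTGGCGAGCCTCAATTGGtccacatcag
Calr: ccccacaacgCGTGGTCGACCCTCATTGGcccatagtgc
Canx: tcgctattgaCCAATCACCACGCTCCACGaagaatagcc
Pdia6: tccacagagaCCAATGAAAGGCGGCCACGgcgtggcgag
Derl3: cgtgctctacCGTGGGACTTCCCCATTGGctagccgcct
Syvn1: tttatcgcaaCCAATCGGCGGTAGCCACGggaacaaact

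The related ERSE-II, searched as ATTGGNCCACG, stood in the promoters of Herpud1 and Dnajb11, against 12 of the 27025 symbols (0.0444%). No promoter of the 43 genes held overlapping ERSE and ERSE-II matches. The unfolded protein response element TGACGTGG, bound by XBP1, stood in Txndc5 and Txndc11, against 193 symbols (0.714%). TGATGNAA, the part of a composite site that ATF4 contacts, stood in Herpud1 and Txndc5, against 1219 symbols (4.51%). The ERSE-II sites follow in the same form, with the motif in capitals.
Herpud1: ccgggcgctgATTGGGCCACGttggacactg
Dnajb11: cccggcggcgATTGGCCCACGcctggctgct

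Some libraries stood apart before any comparison was made. The libraries labelled Control 17 and Acu 4 held decidual genes of the pregnant uterus, at a summed 5182 FPKM in Acu 4 and 13109 FPKM in Control 17 over 9 markers, against 19.3 to 208 FPKM elsewhere. Acu 4 also held trophoblast markers of the placenta, at 5636 FPKM. Both held Xist RNA (60.1 FPKM in Acu 4 and 87.2 FPKM in Control 17) and almost no RNA of the Y-linked genes Ddx3y, Uty, Kdm5d and Eif2s3y, although the mice are labelled male. B cell markers summed to 4.73 FPKM in Acu 4, 5.18 FPKM in Control 15 and 1.98 FPKM in Control 17, against 985 to 1346 FPKM in the other 7 libraries. Control 15 and 16 held fat RNA, with 8 adipocyte markers at a summed 19656 and 6676 FPKM, and Control 16 held skeletal muscle markers at 9698 FPKM. AIA 10 had 15116 genes above 0, against 21224 to 24411 in the other libraries. Recovered reads ran from 13269763 to 18926894 per library, and every one of the 43 genes had at least 34 reads in each library. Each comparison is therefore given over all 10 libraries and over the 8 libraries other than Control 17 and Acu 4.

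The 43 genes together were high in the adjuvant groups and low in Control 15 and 16. Their summed FPKM was 4439, 3322 and 2148 in Acu 4, 6 and 28. It was 3380, 4924, 3273 and 4399 in AIA 5, 10, 31 and 38, and 1572, 1183 and 5133 in Control 15, 16 and 17. The library labelled Control 17 thus exceeded every AIA library, while Control 15 and 16 lay below all Acu and AIA libraries. By gene, Control 16 was lowest of all 10 libraries for 26 of the 43 and Control 15 for 10. The highest value fell in Control 17 for 17 genes and in AIA 10 for 16. The shares of all genes with such extremes are not given here. Control 16 lay below the whole AIA range for 37 of the 43 (86.0%, against 23.4% of all genes) and above it for 1 (2.33%, against 29.6%). Control 17 lay above that range for 20 (46.5%, against 35.1%) and below it for 14 (32.6%, against 29.1%).

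**Figure D1:**
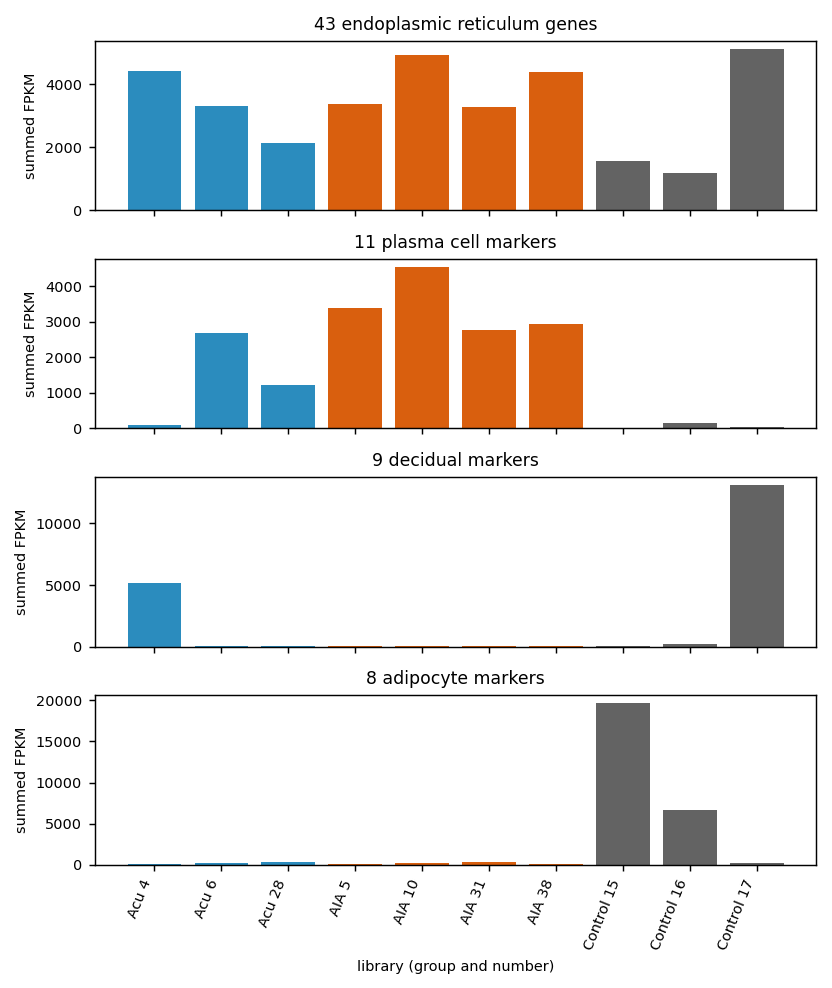
Summed FPKM per library (bars) of the 43 endoplasmic reticulum genes and of 3 marker lists, with libraries of Acu, AIA and Control from left to right. Control 17 has the tallest bar for the 43 genes (5133 FPKM) with almost no plasma cell RNA (53.2 FPKM) and 13109 FPKM of decidual markers.

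Summed markers of plasma cells, dividing cells, T cells and macrophages were, like the 43 genes, higher in AIA than in Control 15 and 16. Their part in that difference was not tested. In the libraries labelled Acu 4 and Control 17, these markers were at or near the levels of Control 15 and 16 while the 43 genes summed to AIA levels or above. The 11 plasma cell markers summed to 103, 2674 and 1231 FPKM in Acu 4, 6 and 28. They summed to 2765 to 4540 FPKM in the AIA libraries, and to 26.0, 165 and 53.2 FPKM in Control 15, 16 and 17. All 11 reached 1 FPKM in Acu 6, Acu 28 and each AIA library, against 8 in Acu 4, and 5, 8 and 4 in Control 15, 16 and 17; none was at 0 in any library. Markers of dividing cells summed to 17.8, 136 and 82.5 FPKM in Acu 4, 6 and 28, 133 to 200.2 FPKM in AIA and 9.86, 15.8 and 20.8 FPKM in Control 15, 16 and 17. T cell markers summed to 52.1, 410 and 451 FPKM in Acu 4, 6 and 28 and to 449 to 595 FPKM in AIA. In Control 15, 16 and 17 they summed to 15.5, 333 and 72.4 FPKM. Macrophage markers were at 586 FPKM in Acu 4 and 1918 and 2919 FPKM in Acu 6 and 28, at 2036 to 3385 FPKM in AIA, and at 508 to 557 FPKM in Control. Of the 8 macrophage markers, 6 stood higher and 2 lower in AIA than in Control over the 8 libraries. Lyz2 alone had 2939 of the 3385 FPKM in AIA 5. Immunoglobulin genes took 0.368%, 20.8% and 13.4% of summed FPKM in Acu 4, 6 and 28, 16.2% to 39.6% in AIA, and 0.0326%, 1.11% and 0.0201% in Control 15, 16 and 17. With immunoglobulin genes left out, the 43 genes made up 1.05%, 1.22% and 0.687% of FPKM in Acu 4, 6 and 28, 0.868% to 1.29% in AIA, and 0.345%, 0.281% and 1.27% in Control 15, 16 and 17. In RNA from whole nodes, fewer cells of a type and less RNA per cell cannot be told apart.

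Levels differed widely between members. Averaged over the 10 libraries, Calr was the most abundant at 358 FPKM, a scale that corrects for gene length. Hsp90b1, Pdia3, P4hb and Hspa5 followed within 238 to 246 FPKM. Atf6 was the least abundant at 8.77 FPKM. The range across libraries was widest for Fkbp11, whose highest value was 81.1 times its lowest, then for Derl3 (54.2 times) and Sdf2l1 (25.6 times).

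**Figure D2:**
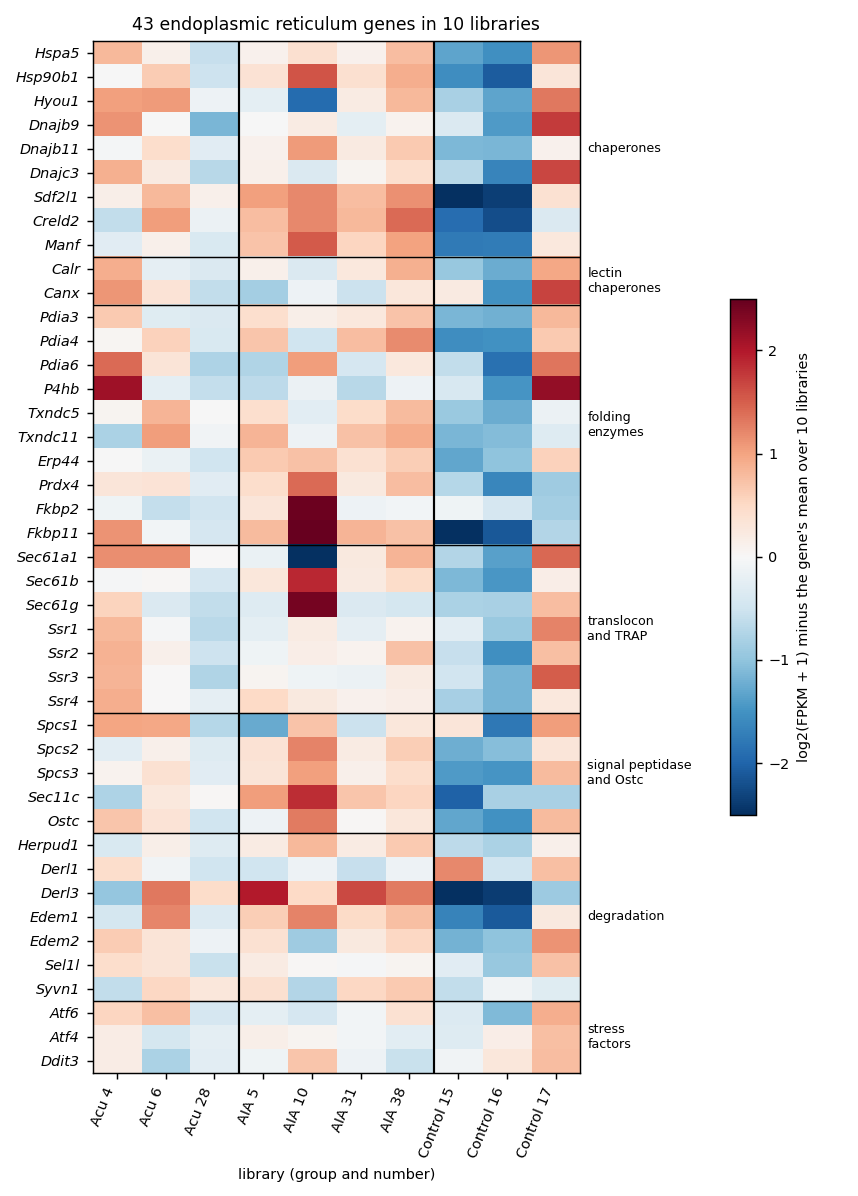
log2(FPKM + 1) of each of the 43 genes minus that gene's mean over the 10 libraries, with genes in rows by role and libraries in columns; red is above and blue below the mean, and colours saturate at the ends of the scale. Control 15 and 16 are blue in most rows, Control 17 and Acu 4 are red in many, and Derl3, Sdf2l1, Creld2 and Fkbp11 show the deepest blue in Control 15 and 16.

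The first comparison, AIA with Control, addresses the effect of the adjuvant on the node. Tissue content differed along with treatment: over the 8 libraries all 7 tested adipocyte markers were called lower in AIA (median -6.72), 3 of 8 skeletal muscle markers were called lower (median -4.52), and Control 15 held few B cell markers. The part of this in the results that follow was not tested. Over the 8 libraries, 20 of the 43 genes rose in AIA and none fell (limma, Benjamini-Hochberg adjusted over all 16067 genes tested, threshold 0.05). By the same test 4.28% of all genes rose, and 13.5% were called in either direction. The median difference of the 43 was 1.27 on the log2(FPKM + 1) scale, against -0.01 over all genes tested. AIA stood above Control in 41 of the 43, and the groups did not overlap for 31 of them, against 18.0% of all genes without overlap and higher in AIA. The 20 genes included 6 of 9 lumenal chaperones, 6 of 10 folding enzymes, 4 of 5 signal peptidase and oligosaccharyltransferase genes, 2 of 7 channel genes and 2 of 7 degradation genes, and no lectin chaperone or stress factor.

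Over all 10 libraries, none of the 43 was called between AIA and Control. Of all 17010 genes tested, 0.0235% were called. At an unadjusted p under 0.05, 16 of the 43 were higher in AIA, against 11.6% of all genes, and 13 did not overlap, against 11.4%. The median difference was 0.89, and it was 1.28 without the library labelled Control 17, 0.60 without Control 15 and 0.55 without Control 16. voom on the recovered reads called 0 of the 43. limma with array weights called 18, all higher in AIA, against 8.22% of all genes.

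The count in the 8 libraries was smallest without Control 15, the library with little lymphocyte RNA. Then, when Control 16 stood alone and was assumed to vary like the other groups, 4 of the 43 were called higher (0.479% of all genes): Derl3, Sdf2l1, Creld2 and Manf. The median difference was then 1.55, and 41 of the 43 still stood higher in AIA. Without AIA 10, the library with few genes above 0, 26 of the 43 were called higher, against 10.1% of all genes.

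**Figure D3:**
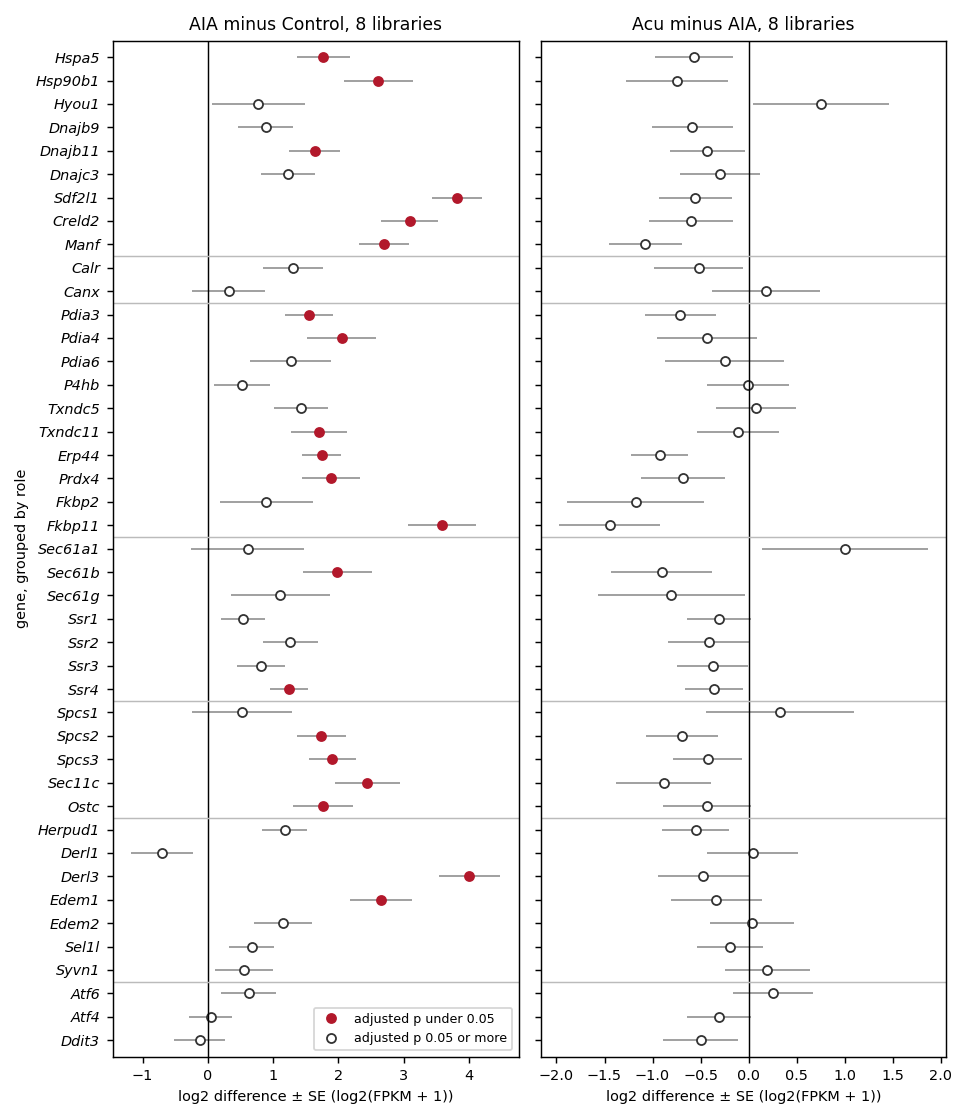
limma's log2 difference with its standard error for each of the 43 genes over 8 libraries, AIA minus Control at left and Acu minus AIA at right, both on the log2(FPKM + 1) scale; filled red points have an adjusted p under 0.05. At left 20 points are filled and 41 lie right of 0; at right none is filled and 34 lie left of 0.

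Among the lumenal chaperones, Sdf2l1 changed most. Its product is a partner of the cochaperone made by Dnajb11, and the gene lies at chr16:17130140-17132383 on the minus strand (mm10). It had 63.3, 100.02 and 62.2 FPKM in Acu 4, 6 and 28. It had 116, 131, 97.1 and 126 FPKM in AIA 5, 10, 31 and 38, and 5.12, 10.2 and 73.7 FPKM in Control 15, 16 and 17. All AIA libraries lay above all Control libraries, Control 17 included. The AIA minus Control difference was 3.82 (SE 0.38, adjusted p = 0.0027) over the 8 libraries and 2.77 (SE 0.71, adjusted p = 0.0797) over all 10. Its promoter held none of the 4 motifs and is printed in full, at chr16:17132334-17132633 on the minus strand, as the counterpart of the ERSE promoters.
Sdf2l1: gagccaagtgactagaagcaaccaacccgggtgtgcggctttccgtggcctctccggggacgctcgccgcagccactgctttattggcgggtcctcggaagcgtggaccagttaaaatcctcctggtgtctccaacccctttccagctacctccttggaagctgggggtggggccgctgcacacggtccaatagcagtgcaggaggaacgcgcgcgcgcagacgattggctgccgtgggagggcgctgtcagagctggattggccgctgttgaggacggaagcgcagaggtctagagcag

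Hspa5 encodes BiP, the central chaperone of the compartment, and lies at chr2:34771970-34777547 on the plus strand. In Acu 4, 6 and 28 it stood at 361, 224 and 137 FPKM. In AIA 5, 10, 31 and 38 it stood at 221, 271, 221 and 352 FPKM, and in Control 15, 16 and 17 at 81.2, 70.0 and 442 FPKM. AIA lay above Control 15 and 16 and below Control 17. It rose by 1.77 in the 8 libraries (SE 0.41, adjusted p = 0.0272) and was 0.93 higher without passing the test in all 10 (SE 0.64, adjusted p = 0.377). Its promoter, at chr2:34771840-34772139 on the plus strand, is the textbook case of the ERSE, shown in capitals.
Hspa5: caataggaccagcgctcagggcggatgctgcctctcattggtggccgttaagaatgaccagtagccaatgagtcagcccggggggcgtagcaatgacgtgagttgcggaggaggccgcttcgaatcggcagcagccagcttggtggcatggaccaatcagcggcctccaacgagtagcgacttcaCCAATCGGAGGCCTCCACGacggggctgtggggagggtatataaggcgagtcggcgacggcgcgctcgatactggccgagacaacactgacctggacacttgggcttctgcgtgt

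Another 4 lumenal chaperone genes rose in AIA over the 8 libraries. Creld2, a stress-inducible protein of the lumen, averaged 175 ± 38.4 FPKM in AIA (SD, n = 4) and 19.2 ± 3.15 FPKM in Control 15 and 16 (SD, n = 2), a difference of 3.09 (SE 0.43, adjusted p = 0.0047). Manf, a secreted protein that binds BiP, rose by 2.70 and Hsp90b1, which encodes the chaperone GRP94, by 2.61. Dnajb11, a cochaperone that delivers clients to BiP, rose by 1.64. The remaining 3 did not pass the test: the cochaperone genes Dnajc3 (1.23) and Dnajb9 (0.88), and Hyou1 (0.78), which encodes a nucleotide exchange factor of BiP. Hyou1 had 36.4, 37.2 and 15.7 FPKM in Acu 4, 6 and 28, against 14.6, 3.84, 20.3 and 31.03 FPKM in AIA 5, 10, 31 and 38 and 9.40, 6.34 and 45.0 FPKM in Control 15, 16 and 17. AIA 10 was the lowest of all 10 libraries for this gene, and the groups overlapped.

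The lectin chaperones hold newly made glycoproteins until they fold, and neither passed the test. Calr, for calreticulin, had 594, 270.0 and 245 FPKM in Acu 4, 6 and 28. AIA 5, 10, 31 and 38 had 345, 246, 381 and 583 FPKM of Calr, and Control 15, 16 and 17 had 164, 134 and 617 FPKM. Control 15 and 16 lay below all AIA libraries and Control 17 above them, and the difference over 8 libraries was 1.30 (SE 0.46, adjusted p = 0.0985). Canx, for calnexin, lies at chr11:50293961-50325673 on the minus strand. It stood at 110.3, 64.9 and 33.1 FPKM in Acu 4, 6 and 28, at 27.96, 46.3, 34.6 and 62.1 FPKM in AIA 5, 10, 31 and 38, and at 60.0, 17.2 and 167 FPKM in Control 15, 16 and 17. Control 15 lay inside the AIA range and Control 16 below it. The Canx difference was 0.32 (SE 0.56) over 8 libraries and -0.45 (SE 0.70) over 10, so its sign turned with the library labelled Control 17.

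Among the folding enzymes, Fkbp11 rose most. It encodes a prolyl isomerase abundant in secretory cells and lies at chr15:98724366-98728198 on the minus strand. Fkbp11 had 23.0, 9.61 and 7.31 FPKM in Acu 4, 6 and 28. It had 18.0, 62.0, 18.9 and 17.3 FPKM in AIA 5, 10, 31 and 38, and 0.764, 1.53 and 5.66 FPKM in Control 15, 16 and 17. AIA lay above every Control library, and AIA 10 stood far above the other AIA libraries. The difference was 3.59 over 8 libraries (SE 0.53, adjusted p = 0.0055) and 3.05 over 10 (SE 0.61, adjusted p = 0.0638).

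Another 5 folding enzyme genes rose by 1.55 to 2.05. They were the disulfide isomerase genes Pdia4 (2.05) and Pdia3 (1.55), whose product is a partner of calnexin and calreticulin, the peroxide-consuming Prdx4 (1.89), Erp44 (1.74), which returns escaped clients from the Golgi, and the thioredoxin-domain gene Txndc11 (1.70). Txndc5 (1.43), the disulfide isomerase gene Pdia6 (1.27), the prolyl isomerase gene Fkbp2 (0.89) and P4hb (0.52) did not pass. P4hb encodes protein disulfide isomerase, which is also a subunit of the enzyme that hydroxylates collagen, and lies at chr11:120560298-120573253 on the minus strand. It had 716, 138 and 109 FPKM in Acu 4, 6 and 28, against 104, 147, 101 and 151 FPKM in AIA 5, 10, 31 and 38 and 124, 58.2 and 759 FPKM in Control 15, 16 and 17. Acu 4 and Control 17 had 5.70 and 6.04 times the AIA mean of P4hb, the highest such ratios of any of the 43 genes. Fibroblast markers, Col1a1 among them, summed to 2587 FPKM in Acu 4 and 1236 FPKM in Control 17, against 142 to 454 FPKM elsewhere, and their part in the P4hb level was not tested.

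**Figure D4:**
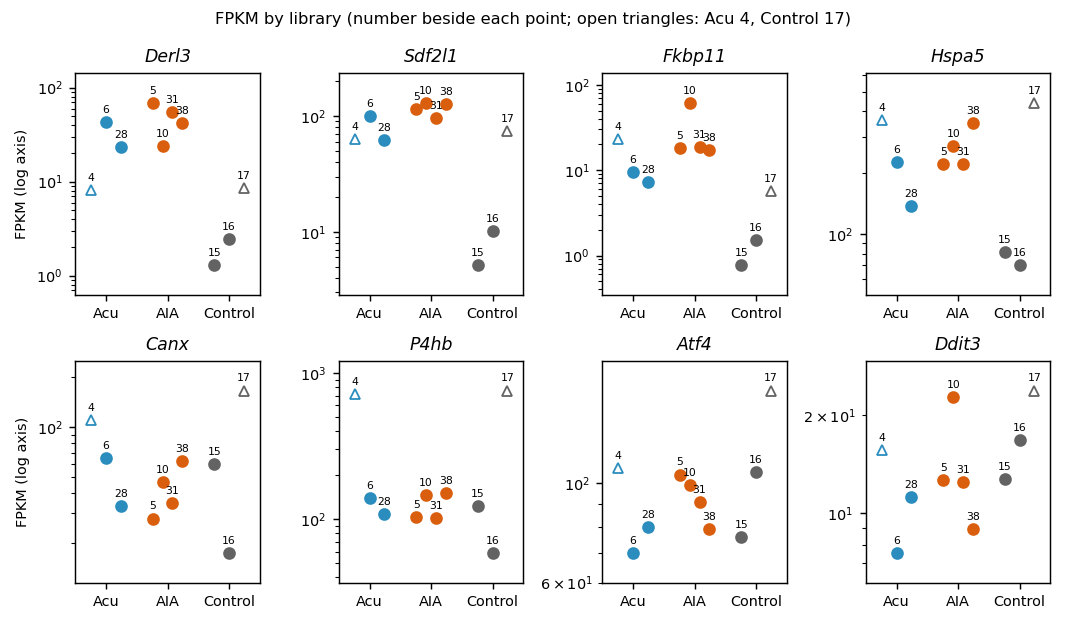
FPKM of 8 genes on log axes, a point per library with its number, for Acu, AIA and Control from left to right; open triangles are the libraries labelled Acu 4 and Control 17. Derl3, Sdf2l1 and Fkbp11 separate AIA from Control 15 and 16 by the most, Hspa5 by less, and Canx, P4hb, Atf4 and Ddit3 overlap.

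Of the 7 channel genes 2 rose, and the median difference of the 7 was 1.11. Sec61b, a subunit of the Sec61 channel, had 85.3, 88.4 and 64.9 FPKM in Acu 4, 6 and 28. In AIA 5, 10, 31 and 38 it had 106, 325, 102 and 119.6 FPKM, and in Control 15, 16 and 17 it had 39.4, 31.3 and 97.6 FPKM. AIA lay above all 3 Control libraries, narrowly above Control 17. It rose by 1.99 over 8 libraries (SE 0.52, adjusted p = 0.0413), and Ssr4, a subunit of the translocon-associated TRAP complex, rose by 1.24 (SE 0.30, adjusted p = 0.0307). Ssr2 (1.27), Sec61g (1.11), Ssr3 (0.82), Sec61a1 (0.61) and Ssr1 (0.54) did not pass. Ssr1 had 31.4, 17.1 and 10.6 FPKM in Acu 4, 6 and 28, against 14.8, 20.4, 14.9 and 18.8 FPKM in AIA 5, 10, 31 and 38 and 14.5, 8.80 and 43.04 FPKM in Control 15, 16 and 17. Control 15 was just under the lowest AIA library for this gene.

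Of the genes that cut signal peptides and attach glycans, 4 of 5 rose. Sec11c, a catalytic subunit of the signal peptidase, had 30.8, 64.0 and 54.6 FPKM in Acu 4, 6 and 28. It had 111, 195, 86.9 and 77.9 FPKM in AIA 5, 10, 31 and 38, against 12.3, 29.8 and 29.9 FPKM in Control 15, 16 and 17. AIA lay above all Control libraries and above all Acu libraries, and the rise over Control was 2.44 (SE 0.49, adjusted p = 0.0171). Spcs3 rose by 1.91 and Spcs2 by 1.74, both accessory subunits of the peptidase, and Ostc, a subunit of the oligosaccharyltransferase, by 1.76. Spcs1, the remaining peptidase subunit, stood at 70.3, 69.2 and 21.0 FPKM in Acu 4, 6 and 28, at 14.1, 58.1, 24.1 and 42.8 FPKM in AIA 5, 10, 31 and 38, and at 43.8, 9.50 and 74.0 FPKM in Control 15, 16 and 17. These overlapped (0.53, SE 0.77).

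Derl3 had the largest difference of all 43 genes. It encodes a derlin, a membrane protein that helps misfolded proteins leave for degradation, and lies at chr10:75893413-75895941 on the plus strand. Derl3 had 8.10, 42.98 and 23.3 FPKM in Acu 4, 6 and 28. It had 69.5, 24.0, 54.9 and 42.4 FPKM in AIA 5, 10, 31 and 38, and 1.28, 2.44 and 8.50 FPKM in Control 15, 16 and 17. No AIA library overlapped a Control library. The difference was 4.01 over 8 libraries (SE 0.47, adjusted p = 0.0030) and 3.44 over 10 (SE 0.64, adjusted p = 0.0623). Derl3 was low in both libraries with decidual RNA, at 0.170 times the AIA mean in Acu 4 and 0.178 times in Control 17, while Canx was at 2.58 and 3.90 times in the same libraries.

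The rest of the degradation genes were mixed. Edem1, a lectin that marks misfolded glycoproteins, rose by 2.65 (SE 0.47, adjusted p = 0.0112). Herpud1 (1.18), Edem2 (1.15), Sel1l (0.67) and Syvn1 (0.55), the last of which encodes the ubiquitin ligase of the pathway and needs Sel1l, did not pass. Derl1, a derlin gene with a broad tissue range, stood lower in AIA than in Control by -0.70 (SE 0.47, adjusted p = 0.364). It had 66.2, 45.3 and 34.1 FPKM in Acu 4, 6 and 28, against 33.8, 44.5, 32.1 and 44.2 FPKM in AIA 5, 10, 31 and 38 and 113, 34.2 and 82.7 FPKM in Control 15, 16 and 17. Control 15 was the highest library and Control 16 lay inside the AIA range. Without Control 15 the Derl1 difference was 0.12, and without Control 16 it was -1.55 and passed the test.

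None of the 3 stress transcription factors passed the test. Atf6, the membrane-bound sensor, had 12.1, 14.1 and 5.69 FPKM in Acu 4, 6 and 28, against 6.57, 5.71, 7.59 and 10.8 FPKM in AIA 5, 10, 31 and 38 and 6.08, 3.18 and 15.9 FPKM in Control 15, 16 and 17. Atf4, which acts below PERK, had 108, 69.7 and 80.0 FPKM in Acu 4, 6 and 28, against 105, 99.4, 90.8 and 79.1 FPKM in AIA 5, 10, 31 and 38 and 75.8, 106 and 161 FPKM in Control 15, 16 and 17. Ddit3, whose product CHOP is tied to cell death under stress, had 15.6, 7.51 and 11.2 FPKM in Acu 4, 6 and 28, against 12.6, 22.9, 12.5 and 8.96 FPKM in AIA 5, 10, 31 and 38 and 12.7, 16.8 and 23.9 FPKM in Control 15, 16 and 17. All 3 overlapped between AIA and Control. The differences over 8 libraries were 0.63 for Atf6 (SE 0.42, adjusted p = 0.357), 0.04 for Atf4 (SE 0.34, adjusted p = 0.951) and -0.12 for Ddit3 (SE 0.39, adjusted p = 0.862).

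The genes with an ERSE were set beside the other members with a promoter, as a description. Of the 9 genes with the motif, 4 rose over the 8 libraries (Derl3, Creld2, Hsp90b1 and Hspa5) and the median AIA minus Control difference was 1.30. Of the 25 genes with a promoter but no ERSE, 12 rose and the median was 1.24. Among the 8 other tested genes with the motif in a promoter, none rose, 1 fell and the median was -0.59.

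The wider machinery was followed in 76 other genes of the same pathways. Over the 8 libraries, AIA against Control, 5 of them rose (against 4.28% of all genes) and 2 fell (against 9.2%). Bhlha15, a factor of secretory cells, had 4.21, 13.5 and 4.78 FPKM in Acu 4, 6 and 28, against 12.6, 10.4, 9.51 and 12.8 FPKM in AIA 5, 10, 31 and 38 and 0, 0.185 and 0.839 FPKM in Control 15, 16 and 17. It rose by 3.47 (SE 0.38, adjusted p = 0.0029), alone of the 10 sensor and control genes. The others that rose were Rpn1 (1.64), of 12 oligosaccharyltransferase and glycan genes, Ero1lb (1.56), an oxidase, of 10 folding enzymes, Srp19 (0.97), of 11 signal recognition and channel genes, and Slc7a11 (1.32). Slc7a11, a cystine transporter, was 1 of 10 PERK and ATF4 targets, of which Asns (-2.04) and Nupr1 (-1.47) fell and whose median was -0.63. None of the 10 other degradation genes and none of the 13 export genes was called, with medians of 0.26 and 0.47, and 3 export genes were higher and 1 lower at an unadjusted p under 0.05, against 12.7% of all genes higher and 17.6% lower. Over all 10 libraries, 1 of the 76 was called, Bhlha15.

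Acu was compared with AIA to ask what acupuncture added. None of the 43 genes was called over the 8 libraries or over all 10, and none of all genes tested was called either (0.0% in the 8 libraries and 0.0% in the 10). voom and array weights also called 0 in both sets. Over the 8 libraries 34 of the 43 stood lower in Acu, with a median of -0.43 against 0.06 over all genes tested. At an unadjusted p under 0.05, 3 were lower and none higher, against 0.958% of all genes lower: Fkbp11 (-1.45, SE 0.53), Manf (-1.07, SE 0.38) and Erp44 (-0.92, SE 0.29), each with an adjusted p of 0.984. For 10 genes both Acu libraries lay below all 4 AIA libraries, against 7.69% of all genes: Fkbp11, Fkbp2, Pdia3 and Erp44 of the folding enzymes, Sec61b and Ssr4 of the channel, Sec11c and Spcs2 of the peptidase, and Manf and Herpud1. Over all 10 libraries 31 of the 43 stood lower in Acu, with a median of -0.23 (0.07 with upper quartile scaling), and Sec11c alone was lower at an unadjusted p under 0.05, against 2.33% of all genes.

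The 2 Acu libraries kept in the 8 differed from each other. Acu 6 exceeded Acu 28 in 40 of the 43 genes, by a median ratio of 1.61. Acu 28 lay below the whole AIA range for 30 genes, against 12.7% of all genes, and above it for none. Acu 6 lay below that range for 12 genes (27.9%, against 16.1% of all genes), above it for 9 (20.9%, against 23.8%) and within it for 22. Hsp90b1 had 305 FPKM in Acu 6 and 136 FPKM in Acu 28, against 251 to 590.0 FPKM in AIA. Edem1 had 113 FPKM in Acu 6 and 37.7 FPKM in Acu 28, against 67.6 to 115 FPKM in AIA. Without Acu 28 the median Acu minus AIA difference of the 43 was -0.05, and without Acu 6 it was -0.76. Plasma cell markers differed the same way, at 2674 FPKM in Acu 6 and 1231 FPKM in Acu 28, and skeletal muscle markers the other way, at 820.4 FPKM in Acu 6 and 2559 FPKM in Acu 28; their part in the difference was not tested.

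Acu was also set against Control, and this comparison shares its Control libraries with AIA against Control. Over the 8 libraries 3 of the 43 rose in Acu, against 0.89% of all genes called higher and 4.44% called in either direction: Derl3 (3.54, SE 0.55, adjusted p = 0.0182), Sdf2l1 (3.26, SE 0.44, adjusted p = 0.0154) and Creld2 (2.49, SE 0.50, adjusted p = 0.0341). The median of the 43 was 1.02, and 30 of them had both Acu libraries above Control 15 and 16, against 32.4% of all genes. With 2 libraries against 2, Fkbp2 and Ddit3 had both Acu libraries below both Control libraries, against 28.6% of all genes. Over all 10 libraries none of the 43 was called (0.0% of all genes), 6 were higher at an unadjusted p under 0.05 (Derl3, Sdf2l1, Creld2, Fkbp11, Prdx4 and Txndc5), against 3.29% of all genes, and the median was 0.63. voom called 0 of the 43 and array weights 6, all higher, against 4.87% of all genes. That median was 1.23 without the library labelled Control 17, 0.39 without Control 15 and 0.30 without Control 16. No call held without Acu 6, without Acu 28 or without Control 15.

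AIA 10 lay outside the range of the other 3 AIA libraries for 34 of the 43 genes (79.1%), near the 78.6% over all genes tested. It lay above that range for 22 (51.2%, against 32.5% of all genes) and below it for 12 (27.9%, against 46.1%). Among the 13 members under 2500 bases, 10 were higher in AIA 10 than in the mean of the other 3, with a median log2 ratio of 0.45, and among the 30 longer members 17 were higher, with a median of 0.17. Across the 43 genes Spearman's rho between length and that ratio was -0.41, against -0.04 across all genes tested, as a description in which the genes share the library. The same rho for AIA 31 over AIA 5 and 38 was 0.07. Sec61a1 and Hyou1 had their lowest values of all 10 libraries there, at 1.97 and 3.84 FPKM, against 14.98 to 31.6 and 14.6 to 31.03 FPKM in the other AIA libraries. Long members went either way: Ssr1, the longest, and Edem1 were above the other AIA libraries there, and Sel1l was within their range.

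Reads of overlapping genes could enter some values. Another gene that reached 1 FPKM overlapped 11 of the 43, and for 10 of these such a gene lay on the opposite strand, among them Hsp90b1, Manf, Pdia3, Txndc11 and Ddit3. Hsp90b1, Manf and Atf6 were overlapped by such a gene on their own strand, which no strand setting would separate. The strand setting of the counting is not given in the sources. None overlapped Derl3, Sdf2l1, Creld2, Fkbp11 or Hspa5.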

How the data were processed

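The deposited values, in FPKM (by name fragments per kilobase and 1000000 reads), cover 54987 genes in 10 libraries and were made by the authors, with gene lengths and mm10 coordinates. HISAT2 2.0.5, StringTie 1.3.3b, featureCounts 1.5.0-p3 and DESeq2 1.16.1 were used in steps that are not assigned to tools, per the submitters' processing notes. FPKM times gene length gave whole reads for 100% of values above 0, within 0.01 of a step. The library size that the FPKM imply was not the sum of these reads. It was 20275700 against 16391068 reads in Acu 6, and 11336000 against 13269763 in AIA 10.

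FPKM were scaled by the median of ratios, and log2(FPKM + 1) of genes with at least 0.5 FPKM in at least 3 libraries was fitted with limma 3.58.1 in R 4.3.3, with a mean-variance trend and the 3 groups in a shared fit. Over 10 libraries the scale factor was 0.996 in every library, so this scaling changed nothing between libraries. The alternative without scaling is therefore close to the main fit there. Over 8 libraries the factors ran from 1.006 to 1.022. The pseudocount of 1 understates changes of low genes. The p-values were adjusted by Benjamini and Hochberg over all genes tested, with a threshold of 0.05. The fit was also run on simulated data with known changes. There all libraries were drawn from a common profile, so it does not cover the differences in tissue content described above. The comparisons were AIA minus Control, Acu minus AIA and Acu minus Control, over 10 and over 8 libraries.

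The members and gene lists were chosen with earlier results of these data known, so no list was tested and no p was adjusted over a list. All members could be named. Values in every library are given for the members with the largest and the smallest AIA minus Control difference of each role, and for Hspa5, Derl3, Atf4, Atf6 and Ddit3. Pathway genes were named from the 4 with the smallest p per list. Values by library are deposited FPKM. Overlap between groups was read from the deposited FPKM before scaling. Alternatives changed the pseudocount, filter, scaling, weights and groups fitted, used voom on recovered reads, or left out each library. The rest ran in Python 3.11.15 (matplotlib 3.10.9, pandas 2.3.3, numpy 2.4.6, scipy 1.17.1).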

Additional observations from a re-analysis of the deposited data

Results flagged for a closer look

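Within AIA, 5 of the 43 genes had 1 library far from the others on the log2 scale, and each time it was AIA 10. The gap between AIA 10 and the nearest AIA library, as a share of the range of the 4 libraries, was 0.958 for Sec61g, 0.932 for Fkbp11, 0.861 for Sec61b, 0.830 for Fkbp2 and 0.829 for Txndc11. Sec61g had 138 FPKM in AIA 10 against 18.5 to 20.2 FPKM in the other 3, and Fkbp2 had 561 FPKM against 93.2 to 127 FPKM. Fkbp11 had 62.0 FPKM against 17.3 to 18.9 FPKM, and Sec61b had 325 FPKM against 102 to 119.6 FPKM. Txndc11 was low in AIA 10, with 10.5 FPKM against 19.8 to 22.6 FPKM. Chance gives such a gap in about 1 in 20 groups, and the 5 gaps share a library. AIA 10 lay outside the range of the other 3 AIA libraries for 78.6% of all genes tested. The share of all genes with such a gap is not given here, so the gaps cannot be read as particular to the 43 genes.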

How the results depend on the processing

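Each comparison was repeated under 17 alternatives over 10 libraries and 15 over 8. The median of the 43 genes moved by less than 1 SD between libraries in each, and kept its sign except in Acu minus AIA over 10 libraries with upper quartile scaling (0.07). Over 8 libraries the AIA minus Control count of 20 was 11 with array weights, 13 with those 2 groups alone, and 4 (without Control 15) to 26 (without AIA 10) with a library left out; it was 10 to 12 without Acu 28, AIA 5, AIA 31, AIA 38 or Control 16. Derl3, Sdf2l1, Creld2 and Manf were called in all 15. Of the 20, the least stable were Sec61b (called in 4), Pdia4, Ssr4 and Ostc (5 each), Pdia3 (6) and Txndc11 (7). Hspa5, Dnajb11 and Prdx4 were called in 8 each. Over 10 libraries the count of 0 became 18 with array weights, 4 with those 2 groups alone, and 0 to 14 with a library left out (7 without Acu 4 and 14 without Control 17). For Acu minus Control over 8 libraries the count of 3 became 7 with upper quartile scaling, 0 with those 2 groups alone and 0 to 13 with a library left out (13 without AIA 10). Over 10 libraries the count of 0 became 6 with array weights and 0 to 1 with a library left out (1 without Control 17). Acu minus AIA stayed at 0 throughout. The share of all genes called moved with the fit too. For AIA minus Control, 4.28% of all genes were called higher over 8 libraries and 10.1% without AIA 10. With array weights over 10 libraries it was 8.22%, and 4.87% for Acu minus Control. For most other alternatives that share is not given here, so a changed count cannot be read as particular to the 43 genes. In Acu minus AIA, upper quartile scaling put the median of all genes at 0.26 over 10 libraries, against 0.08, and at 0.29 over 8, against 0.06; the median of the 43 over 8 was then -0.10.

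Some AIA minus Control differences that did not pass the test over the 8 or 10 libraries turned sign, and the cause was not tested; of these Derl1 passed without Control 16. Over 8 libraries, Atf4 was -0.10 with upper quartile scaling and -0.23 to 0.27 with a library left out (-0.00152 without AIA 5). Without Control 16 and without Control 15, the ends of the range were -0.56 and 1.16 for Canx, -0.022 and 1.03 for P4hb, -0.53 and 1.54 for Spcs1 and -1.55 and 0.12 for Derl1. Ddit3 ran from -0.34 to 0.061 (without AIA 38; 0.059 without Control 16). Over 10 libraries, Canx ran from -1.27 to 0.33 and P4hb from -1.31 to 0.54, both highest without Control 17. No paired analysis was possible because the groups share no replicate number. With 2 Control libraries left in the 8, precision was limited. Among the 43 genes the smallest difference called was 1.24 (Ssr4), while 1.43 (Txndc5) was not called.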
